A study of Mus musculus with 18 samples.

Results

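H3K27me3 in the liver was compared between KO150, a Ctcf knockout animal (CTCF fl/fl Albcre+), and WT156, a control animal with the same floxed alleles and no Cre (CTCF fl/fl Albcre-). Both were C57BL/6 and 8 weeks old. These are the 2 H3K27me3 libraries among 18 ChIP-seq libraries of the series. The others were for H3K27ac (3 KO and 3 WT), H3K4me3 (1 KO and 1 WT), CTCF (2 KO and 2 WT) and PPARg (2 KO and 2 WT). Cre is driven by the albumin promoter, so the deletion acts in hepatocytes, while Kupffer, endothelial and stellate cells of the same liver keep Ctcf. The sex of KO150 and WT156 is not in the labels used here. With 1 library of each genotype, every difference in H3K27me3 below is a difference between these libraries, with no replicate and no test. The share of cells with the mark and the level of the mark in a cell cannot be told apart in whole tissue.

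H3K27me3 is the trimethyl mark that Polycomb repressive complex 2 places on histone H3 through its enzymes EZH2 and EZH1. It marks the silenced promoters of developmental regulators, most of which lie in CpG islands, and it spreads over whole gene clusters such as the Hox genes. In adult liver it covers the regulators of other lineages, while hepatocyte genes carry acetylation. CTCF is a zinc-finger protein that stops loop extrusion by cohesin, and its sites divide the Hox clusters into active and Polycomb-covered segments in several mammalian cell types.

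Promoters from RefSeq on build GRCm38.p6 are shown to give the sequence context of the mark, with each CG dinucleotide in capitals. Each run is 300 bases, 5′ to 3′ on the strand of the gene, from 250 bases before to 50 bases after the start site. Evx1 (chr6:52313248-52313547, plus strand) lay in a domain in KO150 alone, and Msx2 (chr13:53472731-53473030, minus strand) and Wnt11 (chr7:98834862-98835161, plus strand) lay in domains of both libraries. A1bg (chr15:60921221-60921520, minus strand) is the promoter of a gene whose body carried a domain in WT156 alone, and Alb (chr5:90460620-90460919, plus strand), the promoter of the albumin gene, lay in none.
Evx1: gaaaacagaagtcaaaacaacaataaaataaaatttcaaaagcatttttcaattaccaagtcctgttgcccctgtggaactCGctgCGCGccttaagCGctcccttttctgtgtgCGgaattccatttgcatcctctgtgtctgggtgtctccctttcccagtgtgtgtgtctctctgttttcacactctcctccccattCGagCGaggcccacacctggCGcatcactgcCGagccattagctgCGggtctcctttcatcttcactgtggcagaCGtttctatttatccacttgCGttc
Msx2: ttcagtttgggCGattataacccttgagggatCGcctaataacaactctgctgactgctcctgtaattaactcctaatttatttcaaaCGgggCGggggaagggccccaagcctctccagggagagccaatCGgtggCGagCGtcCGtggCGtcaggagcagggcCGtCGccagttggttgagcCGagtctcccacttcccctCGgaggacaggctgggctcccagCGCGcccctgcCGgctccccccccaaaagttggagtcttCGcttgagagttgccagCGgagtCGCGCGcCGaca
Wnt11: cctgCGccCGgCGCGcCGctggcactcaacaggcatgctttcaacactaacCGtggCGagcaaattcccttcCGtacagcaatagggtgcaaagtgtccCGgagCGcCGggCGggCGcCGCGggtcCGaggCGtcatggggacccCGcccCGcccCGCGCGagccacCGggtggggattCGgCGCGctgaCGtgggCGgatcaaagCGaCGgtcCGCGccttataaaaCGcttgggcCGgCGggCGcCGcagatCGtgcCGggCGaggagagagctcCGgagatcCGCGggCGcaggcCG
A1bg: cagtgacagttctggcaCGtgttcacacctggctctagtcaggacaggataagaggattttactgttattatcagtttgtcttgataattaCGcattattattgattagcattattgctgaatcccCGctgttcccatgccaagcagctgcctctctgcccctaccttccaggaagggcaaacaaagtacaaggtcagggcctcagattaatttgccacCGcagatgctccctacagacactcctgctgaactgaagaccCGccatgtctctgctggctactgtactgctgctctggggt
Alb: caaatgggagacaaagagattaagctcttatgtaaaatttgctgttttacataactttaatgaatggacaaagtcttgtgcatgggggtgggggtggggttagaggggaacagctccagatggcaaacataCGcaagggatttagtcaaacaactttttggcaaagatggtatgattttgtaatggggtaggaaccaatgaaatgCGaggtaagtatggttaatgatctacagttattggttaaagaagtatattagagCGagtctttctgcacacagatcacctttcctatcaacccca
The Evx1, Msx2 and Wnt11 windows held 12, 22 and 45 CG dinucleotides, with observed-to-expected ratios of 0.71, 0.789 and 1.18. The A1bg and Alb windows held 5 and 3, with ratios of 0.281 and 0.272. Over all windows the median ratio was 0.692 in 481 windows with a domain in KO150 and not WT156. It was 0.682 in 383 windows with a domain in both, 0.625 in 153 with a domain in WT156 and not KO150, and 0.556 in 20220 with neither. Each of the 3 marked classes thus had a higher CpG ratio than unmarked windows, although the classes overlapped widely, with quartiles of 0.451 and 0.835 in the KO150 class and 0.218 and 0.827 among unmarked windows.

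The KO150 list held 9216 peaks on chromosomes 1 to 19, and the WT156 list 8131. These peaks covered 6.25 Mb in KO150 and 4.01 Mb in WT156, with median widths of 463 bp in KO150 and 375 bp in WT156. Fold values were low: the median fold enrichment over background, as deposited, was 3.59 in KO150 and 3.43 in WT156. A −log10 q of at least 3 was reached by 269 peaks (2.92%) in KO150 and 117 (1.44%) in WT156. Neither list holds peaks on X or Y, so the sex chromosomes were not analysed here. The lists give no read depth, and the number and length of called peaks can move with it.

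Markers fitted the liver label in both libraries. The 6 hepatocyte markers Alb, Ttr, Apoa1, Apob, Hnf4a and Cps1 had 0 bp of H3K27me3 domain within 5 kb in KO150 and in WT156, and each carried H3K27ac in 3 of 3 KO and 3 of 3 WT libraries. The labels name liver as source and tissue, but their growth protocol text is about culture of neural stem cells. Neural stem genes were marked: the domain over Pax6 took 20026 bp of its span in KO150 and 10092 bp in WT156, and that over Sox2 2467 bp in KO150 and 1182 bp in WT156. Pax6, Sox2 and Olig2 had no H3K27ac in any library, and Nes had it in 2 KO libraries. Ctcf itself, the deleted gene, had no H3K27me3 peak within 5 kb in either list, so the mark does not check the deletion in these animals. The CTCF lists, from libraries with other numbers, held 18597 and 20323 peaks in KO and 27585 and 24566 in WT.

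Peaks joined across gaps of up to 3 kb made H3K27me3 domains, and KO150 had the longer covered length at each threshold tried. From peaks with −log10 q of at least 3, there were 254 domains over 171 kb in KO150 and 107 domains over 51.3 kb in WT156, a ratio of 2.37 in number and 3.34 in length. The median domain was 323 bp in KO150 and 191 bp in WT156. All deposited peaks gave 5100 domains over 11.4 Mb in KO150 and 5234 over 7.89 Mb in WT156, a ratio of 0.974 in number and 1.45 in length. There the median domain was 658.5 bp in KO150 and 455 bp in WT156, and 196 domains in KO150 and 82 in WT156 were 10 kb or longer. The length ratio was largest at a −log10 q of 2.5, at 5.26, and was 1.86 at 5. Cut to equal numbers of peaks, the strong lists covered 1.24 times as much in KO150. Cut to equal length of peaks, the order turned, with a ratio of 0.757 in domain number and 0.943 in covered length.

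**Figure D1:**
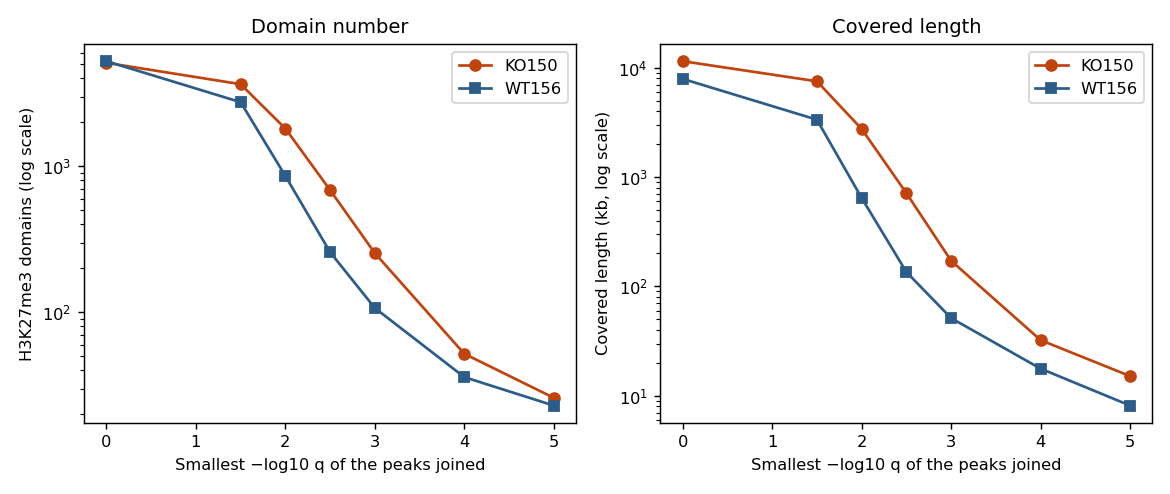
Number of H3K27me3 domains (left) and their covered length in kb (right), both on log axes, against the smallest −log10 q of the peaks joined within 3 kb; circles are KO150 and squares WT156, 1 library each. Covered length lies higher in KO150 at every threshold, by 1.45 times for all peaks and 3.34 times at 3, while the number of domains is 5100 in KO150 and 5234 in WT156 when all peaks are used.

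Most strong domains had at least a weak peak in the other library. Of 254 strong KO150 domains, 157 (61.8%, 95% Wilson interval 55.7 to 67.6) overlapped a WT156 peak of any q and 97 (38.2%) did not. Of 107 strong WT156 domains, 75 (70.1%, 60.8 to 77.9) overlapped a KO150 peak and 32 (29.9%) did not. These intervals cover counting error over domains alone. Domains that were strong in both libraries were few: 33 of 254 in KO150 met a strong WT156 domain, and 34 of 107 in WT156 met a strong KO150 domain. Many of these lay at loci that H3K27ac and PPARg antibodies also called, such as Gphn, Lars2 and several domains nearest to Alkbh8. Others were neighbouring domains between Gas8 and Rhou, so they are not a set of developmental genes. With all peaks, the 4.90 Mb shared by both libraries was 42.8% of the KO150 length and 62.1% of the WT156 length. Among 2296 shared regions, 1549 (67.5%) were wider in KO150, 746 were wider in WT156 and 1 was equal, with medians of 2833.5 bp in KO150 and 1560 bp in WT156. Domains without a peak in the other list were short, with medians of 393 bp for KO-only and 319 bp for WT-only domains, against 2851 bp for shared domains in KO150 and 1568 bp in WT156.

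Some of the smallest q values lay away from developmental genes. The domain at Fcgr3, which encodes an Fc receptor of immune cells (chr1:171063762-171079378 in KO150), was 15617 bp long in KO150. WT156 had 2 strong domains over it, of 7814 bp (chr1:171063759-171071572) and 2322 bp (chr1:171077023-171079344). The highest −log10 q there was 12.2 in KO150 and 9.3 in WT156. With all peaks, the span of Fcgr3 held 2154 bp in KO150 and 2157 bp in WT156. Other such domains lay at loci that H3K27ac and PPARg antibodies also called: 23 of 254 strong domains in KO150 (9.06%) and 16 of 107 in WT156 (15.0%) overlapped peaks of both. Among strong domains with −log10 q of at least 5, these were 11 of 25 in KO150 and 9 of 23 in WT156. Their part in the counts was measured: without them the ratio of strong domains was 2.54 in number and 4.12 in length.

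Strong domains reached few genes, and those most covered included homeobox factors. A strong domain touched 116 genes in KO150 (0.53% of 21883 protein-coding genes) and 46 in WT156 (0.21%). It covered at least 50% of the span of 1 gene in KO150 (0.00457%) and 0 in WT156 (0%). That gene was Evx1, an even-skipped homeobox factor beside the HoxA cluster, where 4181 bp were under a strong domain in KO150 and 0 bp in WT156. Coverage of the span was higher in KO150 by at least 20 percentage points for 9 genes (0.0411%), and lower for 0 (0%). Of 147 genes touched by a strong domain in either library, 112 (76.2%) had more covered bp in KO150 and 35 (23.8%) had fewer. The 9 were Evx1, Msx2, Otp, Dlx4, Pou4f3, Wnt10a, Arid3c, Adra2a and Cbln1. Msx2, a homeobox factor of limb and craniofacial development, had 1656 bp under a strong domain in KO150 and 0 bp in WT156. The promoter windows of 7 genes lay under a strong domain in KO150 (0.04% of 17491) and 0 in WT156, with Msx2 and Wnt11 among the 7. Otp, a homeobox factor of the hypothalamus, had 2904 bp in KO150 and 0 bp in WT156, and Wnt10a, a Wnt ligand, 2653 bp in KO150 and 0 bp in WT156.

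With all peaks, these 9 genes did not all differ in extent. Pou4f3, a POU homeobox factor of hair cells, was covered over 100% in KO150 and 0% in WT156, Evx1 over 100% in KO150 and 64.3% in WT156, Msx2 over 100% in KO150 and 49.7% in WT156, and Wnt10a over 100% in KO150 and 62.6% in WT156. Arid3c was covered over 93.8% in KO150 and 91.8% in WT156, and Adra2a, an adrenergic receptor, over 69.7% in KO150 and 75.6% in WT156. Dlx4 and Cbln1 were covered over 100% in both libraries, so their spans can show no difference. Otp was covered over 49.7% of its span in KO150 and 47.2% in WT156, but with 5 kb either side it held 11249 bp in KO150 and 8413 bp in WT156. The highest −log10 q at Otp was 4.08 in KO150 and 2.08 in WT156, and its highest fold was 4.70 in KO150 and 3.95 in WT156. Skor1, Mnx1 and Dbx1, transcription factors of the nervous system, held 0 bp of strong domain in KO150 and 789, 529 and 431 bp in WT156. With all peaks the whole span of each was covered in both libraries. With 5 kb either side, Skor1 held 18055 bp in KO150 and 12678 bp in WT156, Mnx1 14648 bp in KO150 and 11624 bp in WT156, and Dbx1 13847 bp in KO150 and 9505 bp in WT156.

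KO-only strong domains, with no WT156 peak over them, were led by Igsf21, an immunoglobulin-family synaptic gene, where the domain was 2899 bp (chr4:140103171-140106069). The next lay in Rgma, a repulsive guidance molecule, at 1145 bp, Lrrc15 at 942 bp and Nr5a1, the steroidogenic nuclear receptor, at 933 bp. Others lay 3.84 kb from Pdx1, the pancreatic homeobox factor, and 0.809 kb from Foxl2, the ovarian forkhead factor. The longest WT-only strong domain was 553 bp, 88.3 kb from Gli2 (chr1:119142754-119143306), and the next lay by Myrip (356 bp) and Foxd1 (342 bp). At Foxl2, all-peak domains covered 100% of the gene in KO150 and 0% in WT156, although 5 WT156 peaks lay within 5 kb.

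With all peaks, domains touched 2257 genes in KO150 (10.3%) and 2014 in WT156 (9.2%), and covered at least 50% of the span of 278 (1.27%) in KO150 and 171 (0.781%) in WT156. Coverage was higher in KO150 by at least 20 points for 274 genes (1.25%) and lower for 57 (0.26%). Of 2700 genes touched in either library, 1706 (63.2%) had more covered bp in KO150 and 937 (34.7%) had fewer. A RefSeq promoter window was under a domain in 751 of 17491 genes in KO150 (4.29%) and 464 in WT156 (2.65%). It was so in KO150 and not WT156 for 422 genes (2.41%), in WT156 and not KO150 for 135 (0.772%), and in both for 329 (1.88%).

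Most of the 15 longest regions shared by both libraries lay over homeobox and other developmental factors. An exception lay 0.347 kb from Pkd2l1, an ion channel gene (chr19:44248675-44278230), with 19.3 kb in KO150 and 24.9 kb in WT156. The largest, 127.9 kb over Hoxc13 to Hoxc4 (chr15:102916153-103044033), was covered over 124 kb in KO150 and 114 kb in WT156. The region over Hoxd13 to Hoxd9 (chr2:74666269-74704569) was covered over 38.3 kb in KO150 and 23.4 kb in WT156. Tbx15, a T-box factor of skeleton and mesenchyme, had 34.9 kb in KO150 and 24.7 kb in WT156, and Pax6, the eye and brain factor, 34.3 kb in KO150 and 21.8 kb in WT156. Some were alike: at En1, a midbrain homeobox factor, the region held 24.1 kb in KO150 and 24.0 kb in WT156, and at Hand2, a bHLH factor of heart and stellate cells, 27.1 kb in KO150 and 24.96 kb in WT156. The largest gap was at Barhl2, a neural homeobox factor (chr5:106443787-106477546), with 33.8 kb in KO150 and 9.18 kb in WT156. There 6 peaks stood within 5 kb of the gene in KO150 and 3 in WT156, with a highest −log10 q of 2.87 in KO150 and 1.79 in WT156.

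The 4 Hox clusters, with 10 kb either side, differed in how much of them was covered. The HoxC window was covered over 92.0% in KO150 and 85.6% in WT156, and HoxD over 72.5% in KO150 and 47.3% in WT156. HoxA was covered over 46.4% in KO150 and 33.8% in WT156, and HoxB over 37.2% in KO150 and 25.3% in WT156. These are all-peak values. Strong domains covered little of any cluster, and went the other way at HoxC (0.135 kb in KO150, 1.27 kb in WT156) and HoxD (0 kb in KO150, 0.602 kb in WT156), while HoxA held 4.01 kb in KO150 and 0 kb in WT156 and HoxB 0.877 kb in KO150 and 0 kb in WT156. Over the genes of the Hox list, strong domains held 0.652 kb in KO150 and 0.973 kb in WT156. H3K27ac was at 0 kb over HoxC and HoxD in all 3 KO and 3 WT libraries. Over HoxA it covered 20.9, 24.2 and 29.5 kb in KO and 23.0, 22.8 and 19.5 kb in WT, and over HoxB 18.2, 24.4 and 39.1 kb in KO and 19.95, 21.9 and 20.3 kb in WT. The KO and WT ranges overlapped at both. HoxA and HoxB, the clusters with acetylation, were the less covered by H3K27me3 in each library.

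**Figure D2:**
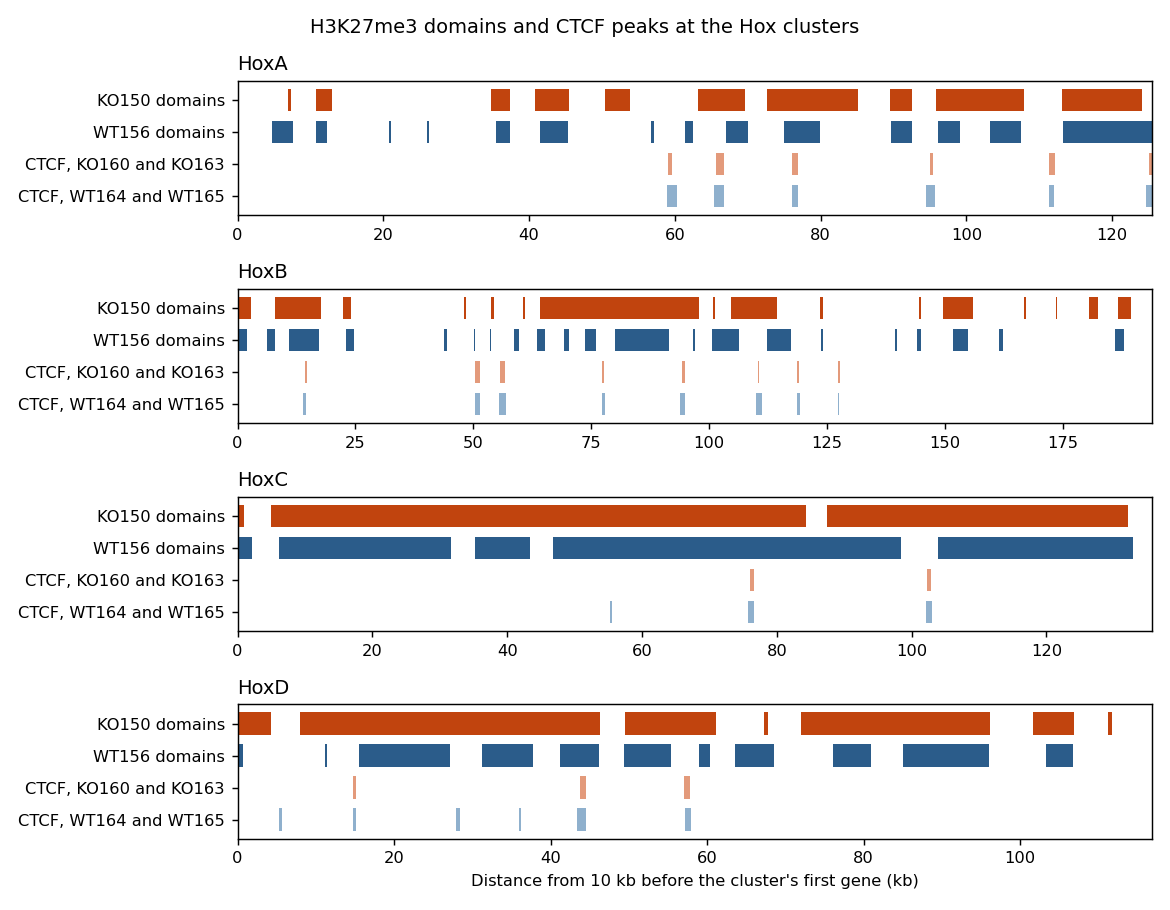
Maps of the 4 Hox clusters, drawn to scale as distance in kb from 10 kb before the first gene: all-peak H3K27me3 domains of KO150 (top row) and WT156 (the row under it), and CTCF peaks of the 2 KO and 2 WT CTCF libraries, each pair merged (lower rows). HoxC is nearly filled in both libraries (92.0% in KO150, 85.6% in WT156), and HoxD holds longer unbroken domains in KO150 (72.5%) than in WT156 (47.3%).

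CTCF peaks at the Hox clusters were few in both genotypes. The HoxD window held 3 and 2 CTCF peaks in KO and 5 and 5 in WT, and HoxC 2 and 2 in KO and 3 and 2 in WT. HoxA held 6 and 6 in KO and 6 and 5 in WT, and HoxB 5 and 8 in KO and 8 and 7 in WT. HoxD was the cluster where the KO counts lay below the WT counts without overlap. The whole CTCF lists were also lower in KO (18597 and 20323 peaks) than in WT (27585 and 24566), so such a separation is not particular to HoxD. A link to the H3K27me3 difference at HoxD was not tested. The labels do not say that CTCF and H3K27me3 libraries share an animal.

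Within the Hox list of 39 genes, 35 had a domain in either library and 4 had none. Of these 35, 22 had more covered bp in KO150, 5 had fewer and 8 were equal. That share with more lies near the share over all touched genes, of which 63.2% had more and 34.7% fewer. The genes covered by at least 50% numbered 23 in KO150 and 19 in WT156. Hoxd13, the most 5′ gene of its cluster, was covered over 100% in KO150 and 8.4% in WT156, and Hoxa11, a limb and uterus regulator, over 100% in KO150 and 62.8% in WT156. Hoxa9 was covered over 100% in KO150 and 49.8% in WT156. The 3 genes at least 20 points lower in KO150 were Hoxb7 (28.9% in KO150, 100% in WT156), Hoxd4 (6.79% in KO150, 66.0% in WT156) and Hoxa6 (3.12% in KO150, 28.2% in WT156).

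The other developmental lists are read beside the 63.2% of all touched genes with more covered bp in KO150. Among 88 other homeodomain and Pax genes, 86 had a domain in either library. Of these 86, 57 had more covered bp in KO150, 16 fewer and 13 the same. A domain touched the promoter window of 47 of 59 in KO150 and 32 of 59 in WT156, beside 4.29% of all genes with a window in KO150 and 2.65% in WT156. Nkx2-5, the cardiac homeobox factor, was covered over 100% in KO150 and 0% in WT156, and Gsc, goosecoid, over 100% in KO150 and 26.2% in WT156. Pou3f3, a POU factor of the brain, was covered over 77.4% in KO150 and 0% in WT156. Irx4, a ventricular homeobox factor, went the other way, with 81.7% in KO150 and 100% in WT156.

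Of 91 T-box, Sox, Fox, Gata and bHLH genes, 72 had a domain in either library. Of these 72, 54 had more covered bp in KO150, 11 fewer and 7 the same. A promoter was touched in 39 of 60 genes of the list in KO150 and 22 of 60 in WT156. Twist1, Neurog3 and Sox14 were covered over 100% in KO150 and 0% in WT156. Neurod2, a neuronal bHLH factor, was covered over 17.7% in KO150 and 100% in WT156, and Ascl2, an imprinted bHLH factor, over 23.5% in KO150 and 100% in WT156. Of 48 Wnt, Hedgehog, BMP and FGF genes, 39 had a domain in either library. Of these 39, 28 had more covered bp in KO150, 9 fewer and 2 the same. Nog, the BMP antagonist noggin, was covered over 100% in KO150 and 3.49% in WT156, Fgf8 over 100% in KO150 and 26.2% in WT156, and Fgf15, the ileal hormone, over 23.6% in KO150 and 98.8% in WT156.

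These counts depend on the amount called. Over the Hox and the 2 transcription factor lists, 133 genes had more covered bp in KO150 and 32 fewer, with 1706 and 937 over all genes. With both lists cut to equal numbers of peaks these were 127 and 37, with 1530 and 1019 over all genes. Cut to equal length of peaks, the developmental lists gave 89 and 72, while all genes turned to 859 and 1442. At equal length all genes changed sides and the developmental lists did not. Both cuts take off only the weaker KO150 peaks, and the second left KO150 domains at 0.768 times the WT156 covered length. The counts therefore cannot show a difference at developmental genes apart from the amount called.

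The hepatocyte identity list was free of the mark in both libraries, while some genes of lipid and energy metabolism carried it. A domain touched 0 of 34 hepatocyte identity genes, 0 of 18 housekeeping genes and 0 of 16 CTCF, cohesin and boundary protein genes in KO150, and the same numbers in WT156. Of 32 Polycomb and H3K27 enzymes, 2 were touched in KO150 and 1 in WT156. Among 24 PPARG target and lipid droplet genes, Lpl, lipoprotein lipase, held 2876 bp in KO150 and 0 bp in WT156, and Cidea, a lipid droplet protein, 1320 bp in KO150 and 2565 bp in WT156. Ppargc1a, the coactivator of mitochondrial and gluconeogenic genes, held 6002 bp in KO150 and 633 bp in WT156. At Lpl, H3K27ac covered 912, 895 and 1914 bp of the gene in KO and 582, 857 and 0 bp in WT. The lowest KO value (895 bp) and the highest WT value (857 bp) lay close. The 1914 bp came from KO 4, whose H3K27ac peaks covered 126 Mb in all, against at most 91.5 Mb in any other H3K27ac library. How many genes separate in this way was not counted, so no difference is read from Lpl.

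Growth and imprinted genes differed in both directions. Igf2, the fetal growth factor, was covered over 80.9% in KO150 and 39.01% in WT156, while the region 11.8 kb from it (chr7:142614604-142638922) was covered over 17.2 kb in KO150 and 24.3 kb in WT156. Cd24a, a surface protein of progenitor cells, was covered over 54.2% in KO150 and 3.49% in WT156. Dio3, the thyroid hormone deiodinase, was covered over 12.5% in KO150 and 57.7% in WT156. Of the cell cycle inhibitors at the Ink4 locus, Cdkn2a held 5027 bp in KO150 and 3888 bp in WT156, and Cdkn2b 0 bp in KO150 and 2575 bp in WT156. Of 29 imprinted genes, 8 had a domain in either library. Of these 8, 4 had more covered bp in KO150 and 4 fewer, beside 63.2% more and 34.7% fewer over all touched genes.

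Marker lists of the other liver cells are read beside the 10.3% of all genes touched in KO150 and 9.2% in WT156. Of 16 endothelial markers 4 were touched in KO150 and 4 in WT156, with 2 wider in KO150 and 2 wider in WT156. Gata4, which also acts in sinusoidal endothelium, had 902 bp in KO150 and 6524 bp in WT156, and Kdr 471 bp in KO150 and 240 bp in WT156. Of 15 stellate and fibrosis markers 5 were touched in KO150 and 4 in WT156, with 3 wider in KO150, 2 wider in WT156 and 1 equal. Pdgfra held 0 bp in KO150 and 2339 bp in WT156, but with 5 kb either side 4491 bp in KO150 and 6229 bp in WT156. Pdgfrb held 1343 bp in KO150 and 0 bp in WT156. Of 15 lymphocyte markers 4 were touched in KO150 and 3 in WT156, Cd3e among them with 2217 bp in KO150 and 0 bp in WT156. Cholangiocyte markers were touched at 2 of 13 genes in KO150 and 0 of 13 in WT156. Kupffer cell and macrophage markers were touched at 0 of 15 genes in KO150 and 2 of 15 in WT156. Clustered protocadherins, whose promoter choice depends on CTCF, held 9.84 kb in KO150 and 11.6 kb in WT156 over 57 genes.

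The regions that were wider in WT156 included genes expressed more in female than in male liver. The region 32.8 kb from Cyp3a41a (chr5:145638230-145661290) was covered over 9.03 kb in KO150 and 23.1 kb in WT156, the largest gap in that direction. WT-only regions included 6.77 kb at A1bg (chr15:60913344-60920112) and 5.99 kb at Cyp3a16 (chr5:145453413-145459400). A list of 30 female-biased liver genes, drawn up after these values were seen, had a domain over 16 members in either library. Of these 14 were wider in WT156 and 2 in KO150, where 34.7% of all touched genes had fewer covered bp in KO150. The list's summed length under domains was 10.7 kb in KO150 and 42.2 kb in WT156.

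Cyp3a16 held 600 bp in KO150 and 7683 bp in WT156, and Cyp3a41a 0 bp in KO150 and 5229 bp in WT156. Both are female-specific cytochromes P450 of adult mouse liver, as are Cyp2b9 (0 bp in KO150, 2006 bp in WT156) and Cyp2b13 (0 bp in KO150, 2360 bp in WT156). Sult2a1, a sulfotransferase of steroids and bile acids, held 430 bp in KO150 and 6054 bp in WT156. A1bg held 0 bp in KO150 and 2524 bp in WT156, and the 4 WT156 peaks within 5 kb of it reached a −log10 q of 1.59. Prom1, which encodes prominin, went the other way with 2553 bp in KO150 and 0 bp in WT156. Apart from Prom1, the domains named here rest on weak peaks. Strong domains touched 1 gene of the list in each library, Prom1 in KO150 (290 bp) and Cyp3a41b in WT156 (160 bp). Cyp3a41a with Cyp3a41b and the Sult2a genes are near-identical copies among which reads may be shared.

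A subset of such genes is known to carry H3K27me3 in male mouse liver. The sex of KO150 and WT156 is unstated and peaks on X and Y were not analysed here, so sex and genotype cannot be told apart for this list. The counts of 2 wider in KO150 and 14 in WT156 were the same with lists of equal number of peaks, with lists of equal length and with a 1 kb joining gap. Both equal lists take off KO150 peaks only, so the 14 could not fall there. With a 10 kb gap the counts were 3 and 13, and with −log10 q of at least 2 they were 2 and 3. A list of 27 male-biased genes, drawn up in the same way, had a domain over 1 member, Moxd1, with 1467 bp in KO150 and 1230 bp in WT156. In the H3K27ac libraries, peaks covered on average 5.46, 7.69 and 8.30% of the female-biased genes in KO and 5.44, 6.94 and 5.61% in WT, ranges that overlap. They covered 24.1, 23.3 and 27.2% of the male-biased genes in KO and 31.5, 34.6 and 38.8% in WT, with the KO values all lower. In these means each gene counts alike, whatever its length, and the same mean over all genes is not given here. This list too was chosen after values were seen, so no difference is read from it. All 6 H3K27ac libraries had peaks at the Y-linked genes Ddx3y, Eif2s3y, Kdm5d and Uty.

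**Figure D3:**
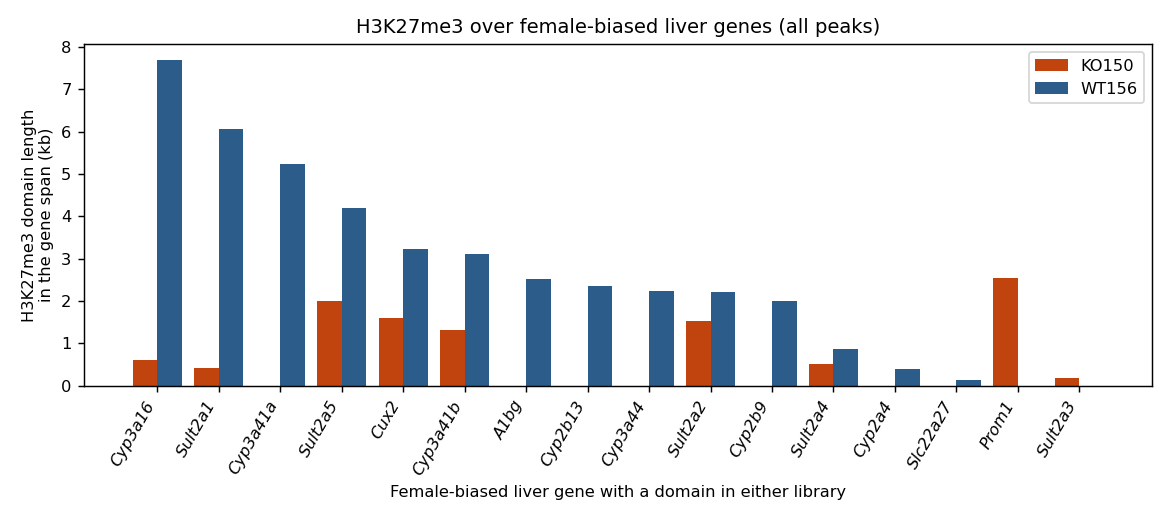
H3K27me3 domain length in kb (all peaks) within the span of each of the 16 female-biased liver genes with a domain in either library, for KO150 (left bar) and WT156 (right bar), ordered by the WT156 value. The WT156 bar is higher for 14 genes, led by Cyp3a16 with 0.6 kb in KO150 and 7.68 kb in WT156, and the KO150 bar is higher for Prom1 and Sult2a3.

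The largest differences in covered length per gene included long neural genes. Auts2, a regulator of neural development that also joins a Polycomb complex, held 1875 bp in KO150 and 18153 bp in WT156, the largest deficit in KO150. Its highest −log10 q within 5 kb was nevertheless 3.29 in KO150 and 2.07 in WT156, from 5 peaks in KO150 and 20 in WT156. Igf1r, the receptor of insulin-like growth factors, held 4718 bp in KO150 and 11537 bp in WT156. The largest excess was at Sptbn4, a spectrin of axons, with 36674 bp in KO150 and 15539 bp in WT156, followed by Rnf220, a ubiquitin ligase, with 29146 bp in KO150 and 10263 bp in WT156. Gdf6, a BMP ligand, held 13384 bp in KO150 and 2351 bp in WT156.

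H3K27ac peaks overlapped each class of H3K27me3 domain in part, and no difference between genotypes reached the smallest p that the design allows. In strong shared domains H3K27ac peaks covered 8.30 ± 2.99% of the length in KO and 6.33 ± 2.76% in WT (SD, n = 3 each, exact permutation p = 0.5, two-sided). In strong KO-only domains the values were 2.61 ± 1.69% in KO and 0.769 ± 0.613% in WT (exact permutation p = 0.2), and in strong WT-only domains 0.697 ± 1.21% in KO and 0.268 ± 0.465% in WT (exact permutation p = 1). The strong shared class holds most domains that H3K27ac and PPARg antibodies also called, 20 of 23 in KO150 and 16 of 16 in WT156. These overlap an H3K27ac peak by definition, so the strong classes are not ranked by acetylation here. The smallest p that 3 against 3 libraries can give is 0.1. With all peaks, KO-only domains had 2.00, 2.92 and 4.20% in KO and 2.12, 2.15 and 1.45% in WT (exact permutation p = 0.3). WT-only domains had 2.73, 3.43 and 5.63% in KO and 3.13, 2.79 and 2.52% in WT (exact permutation p = 0.3). The highest KO value in each came from KO 4, whose H3K27ac peaks covered 126 Mb in all, against 78.2 to 91.5 Mb in the other 5 libraries.

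Promoter windows with an all-peak H3K27me3 domain carried H3K27ac less often than windows without a domain. H3K27ac was present in any library at 2.61% of windows with an H3K27me3 domain in both H3K27me3 libraries, 8.94% of those with a domain in KO150 and not WT156, 22.9% of those with a domain in WT156 and not KO150, and 57.7% of those with neither. Windows marked in 1 library were thus more often acetylated than those marked in both.

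CTCF peaks inside H3K27me3 domains averaged fewer in KO than in WT libraries, as did the CTCF lists as a whole. Shared all-peak domains held 14.4 and 16.1 CTCF peaks per Mb in KO and 25.0 and 20.9 in WT, a ratio of means of 0.666 (exact permutation p = 0.33, n = 2 each, the smallest that 2 against 2 can give). KO-only domains held 16.8 and 21.6 per Mb in KO and 38.9 and 23.5 in WT (ratio 0.615, exact permutation p = 0.33), and WT-only domains 10.4 and 13.8 in KO and 21.4 and 12.4 in WT (ratio 0.714, exact permutation p = 0.667). The groups did not overlap in KO-only and shared domains and overlapped in WT-only domains. The strong domains held at most 2 CTCF peaks of a library in each class, too few to compare.

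**Figure D4:**
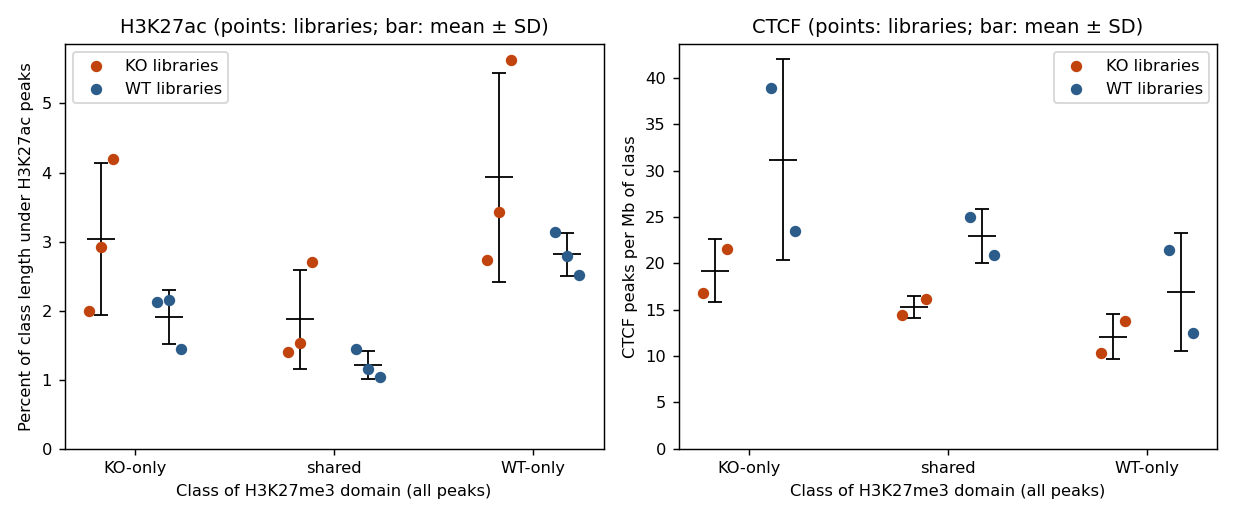
Percent of the length of all-peak H3K27me3 domain classes under H3K27ac peaks (left) and CTCF peaks per Mb of the classes (right); points are libraries (KO left of WT within each class; 3 and 3 for H3K27ac, 2 and 2 for CTCF) and bars are mean ± SD. H3K27ac reaches at most 5.63% in any class and library, and CTCF averages 15.3 peaks per Mb in KO and 22.9 in WT over shared domains.

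CTCF sites lost in KO were seldom near H3K27me3 domains. Of 2965 sites called in both WT and neither KO library, 5.53% lay within 5 kb of a KO150 domain edge and 4.89% within 5 kb of a WT156 edge. Of 15934 sites retained in all 4 libraries, the shares were 7.88% for KO150 edges and 7.09% for WT156 edges. Inside domains lay 36 lost sites (1.21%) in KO150 and 11 (0.371%) in WT156. For retained sites these were 189 (1.19%) in KO150 and 108 (0.678%) in WT156. The lost sites inside domains are few, and KO150 domains cover the greater length. A lost site lay within 5 kb of 3.11% of the KO-only regions, 2.79% of the WT-only regions and 4.05% of the shared regions. A retained site lay within 5 kb of 22.8% of the KO-only, 19.4% of the WT-only and 26.8% of the shared regions. Lost and retained sites thus had the same order over the classes, which were not matched for length.

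H3K4me3, the mark of active promoters, met few H3K27me3 domains. In KO, 288 of 5100 KO150 domains (5.65%, Wilson interval 5.05 to 6.31) overlapped an H3K4me3 peak of KO 4, and in WT 84 of 5234 WT156 domains (1.60%, 1.30 to 1.98) overlapped 1 of WT 2. The H3K4me3 lists held 17402 distinct intervals in KO and 16341 in WT, from 41181 deposited rows in KO and 43587 in WT. Among H3K4me3 peaks with −log10 q of at least 10 the shares were 0.431% in KO and 0.248% in WT. The intervals cover counting error over domains alone and do not test the genotypes. KO150 domains were also longer (median 658.5 bp, against 455 bp in WT156), and the shares were not corrected for length. For strong domains the shares were 6.69% in KO and 5.61% in WT. Most of the H3K4me3 peaks behind the first shares were thus weak, with 22 of 288 domains left in KO and 13 of 84 in WT. The labels do not say that any animal gave both marks.

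By chromosome, the covered length of all-peak domains was higher in KO150 on all 19 autosomes. For strong domains chromosome 16 was an exception, with 1.68 kb in KO150 and 1.75 kb in WT156. The share of all-peak covered length on chromosome 5, which holds the Cyp3a genes and Auts2, was 8.34% in KO150 and 9.84% in WT156, the largest share in WT156. Chromosome 2, with HoxD and Pax6, held 8.61% in KO150 and 7.70% in WT156, and chromosome 11, with HoxB, 8.496% in KO150 and 7.398% in WT156. Domain centres lay within 1 kb of a start site for 14.4% of all-peak domains in KO150 and 11.4% in WT156, with chromosome 18 left out for want of start sites.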

How the data were processed

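The members and gene lists were chosen with earlier results of these data known. Per the submitters' processing notes, the tools were MACS2 2.1.2, BWA 0.7.12, deepTools 3.1.3 and Picard 1.77, and the build mm10; the control used for peak calling is not given in the sources used here. Per the labels, chromatin was sonicated, captured with the antibody abcam ab6002 and made into ligation libraries. The deposited broad peaks carry a fold enrichment, which is a ratio over background, and a −log10 p and −log10 q of the peak caller. Depth is unknown, so a deeper library may have more and wider peaks.

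All peaks outside unplaced scaffolds were used; 3 KO150 and 17 WT156 scaffold peaks were left out. H3K4me3 intervals listed on several rows were counted once with their highest q. Domains were peaks joined across gaps of up to 3000 bp, from peaks with −log10 q of at least 3 (strong) or from all peaks. A domain was KO-only or WT-only if no peak of the other list overlapped it by 1 bp. Covered length includes the joined gaps. Gene spans (21883 protein-coding genes) and promoter windows (17491 genes) are from RefSeq GRCm38.p6. Of 673 list entries, 668 matched by symbol, 1 by synonym and 4 not at all.

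Genes named were those at the 10 longest domains of each class, the 10 largest gains and losses, Ctcf, and up to 6 members of each list; others were chosen after their values were seen. The sex-biased lists, the all-peak classes for H3K27ac and CTCF, and the promoter windows were added after seeing the data. H3K27ac (3 against 3) and CTCF (2 against 2) were compared by exact permutation of libraries, two-sided; where nothing says that libraries came from separate animals, p-values measure the spread between libraries. Python 3.11.15, numpy 2.4.6 and pandas 2.3.3 were used, and the interval code was tested on simulated data, with 25 of 25 checks recovered. Alternatives were other joining gaps, q thresholds, equal list sizes and left-out libraries.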

Additional observations from a re-analysis of the deposited data

How the results depend on the processing

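How much more H3K27me3 was called in KO150 depended on the processing. From strong peaks the ratio of domain number, KO150 over WT156, was 2.37, and it was 0.974 with all peaks, 1.13 with −log10 q of at least 5, 1.04 with lists of equal number of peaks and 0.757 with lists of equal covered length. The ratio of covered length was 3.34, against 1.45, 1.86, 1.24 and 0.943 in the same 4 settings. The ratio of median length was 1.69, and 1.07 at a −log10 q of 5. Equal lists take off the weaker peaks of KO150 by construction. For domains of all peaks, the number ratio turned to 1.06 with a 1 kb gap and 2.11 with −log10 q of at least 2, and the length ratio to 0.768 at equal covered length.

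The percentage of strong KO150 domains with a WT156 peak was 61.8, and 45.2 with all peaks, 84.6 at a −log10 q of 5, 69.1 at equal covered length and 42.9 where the overlap had to reach 0.5 of the domain. For strong WT156 domains with a KO150 peak it was 70.1, and 46.1 with all peaks, 95.7 at a −log10 q of 5 and 59.8 with the stricter overlap.

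Genes covered were 1 in KO150 and 0 in WT156. They were 5 and 0 with a 10 kb gap, 278 and 171 with all peaks, 58 and 6 with −log10 q of at least 2, 116 and 46 at any covered length, and 7 and 0 by promoter windows. In KO150 they were 0 at a −log10 q of 5, with either kind of equal list and with 5 kb either side. Genes higher and lower by 20 points were 9 and 0; they were 274 and 57 with all peaks and 145 and 12 with −log10 q of at least 2. Those higher were 0 at a −log10 q of 5 and at equal covered length, 1 with equal numbers of peaks, 2 with 5 kb either side and 1 at a change of 50 points.

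For H3K27ac, the KO minus WT difference in strong WT-only domains was 0.43 percentage points. It ran from -0.27 (without KO 4) to 0.78 with 1 library left out, and was 0 with H3K27ac −log10 q of at least 3. In the other classes it kept its sign, from 1.24 to 2.81 points in KO-only and from 0.38 (without WT 2) to 3.70 in shared domains. The KO-only difference was 0.2 points with H3K27ac −log10 q of at least 3. With the replicate block (numbers 2 and 4, which the labels do not call pairs) it was 1.60, 1.04 and 1.95 points in KO-only, WT-only and shared domains, and the smallest p is 0.5. CTCF differences in strong domains rest on at most 2 peaks. In KO-only domains the difference ran from -63.4 to 0 per Mb with 1 library left out and was 0 at equal numbers of CTCF peaks. In WT-only domains it was 0, ran from -171 to 171, and was 85.6 at equal numbers of peaks and -4.84 in all-peak classes. H3K4me3 peaks with −log10 q of at least 10 met 1.57% of strong KO150 domains. Depth is unknown, and 1 library a genotype limits all H3K27me3 values.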

Other observations

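Large gene families outside development are read beside the 10.3% of all genes touched in KO150 and 9.2% in WT156. Of 1110 olfactory receptor genes, which are silent in liver, 2 were touched by an all-peak domain in KO150 and 4 in WT156, and of 355 vomeronasal receptor genes 1 was touched in KO150 and 1 in WT156. Zinc finger genes with the symbol Zfp were touched at 18 of 397 genes in KO150 and 12 of 397 in WT156. Of the 7 cell cycle inhibitor genes, only Cdkn2a and Cdkn2b, of the Ink4 locus, had a domain in either library.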
